A study of Mus musculus with 8 samples.

Results

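The transcripts described here are those of 39 genes of Wnt signalling in sorted mouse osteoblasts: 8 Wnt ligands, 12 receptors and co-receptors, 2 genes of ligand secretion, 9 intracellular transducers, and 8 genes that are targets or feedback regulators of beta-catenin. They were chosen by gene symbol from a list of pathway members, with the secreted antagonists left out. All 39 were among the 21154 genes of the count table, and all 39 passed the filter on low counts that left 15373 genes for testing. The cells came from female Col2.3-GFP mice, whose transgene expresses green fluorescent protein (GFP) under part of the Col1a1 promoter, in cells that lay down bone. Mice aged 8 to 10 weeks received 4 weekly intravenous injections of doxorubicin at 5 mg/kg (DOX, 5 libraries) or of phosphate-buffered saline (PBS, 3 libraries), and bone was taken 8 weeks after treatment. GFP-positive cells were sorted from enzyme-digested bone after the marrow had been removed, so the part of the lineage that is sampled is set by this transgene. Doxorubicin is an anthracycline that damages DNA, and the study concerns what such chemotherapy does to the skeleton.

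Wnt proteins are lipid-modified by the acyltransferase that Porcn encodes, carried to the cell surface by the product of Wls, and bound there by Frizzled receptors together with LRP5 or LRP6. Binding recruits Dishevelled proteins and stops the destruction complex of AXIN, APC and GSK3 beta from marking beta-catenin for degradation. Beta-catenin then enters the nucleus and acts with TCF and LEF factors on targets that include feedback inhibitors such as Axin2, Nkd1, Nkd2, Rnf43 and Znrf3. In bone this pathway promotes osteoblast commitment and matrix formation, and some Wnt ligands act instead through beta-catenin-independent routes, for which ROR2 is a receptor.

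Library totals ran from 39419027 to 44299591 counts. Osteoblast markers dominated (12 of 12 in the table, summing to 234327 to 610812 CPM), and Col1a1 and Col1a2 took 19.1% to 39.5% of counts. Of 10 endothelial markers 8, among them Cdh5, Kdr and Tie1, were at 0 in at least 1 library. Markers of some other cell types were present in every library. Their sums were 1962 to 7194 CPM for chondrocytes, 531 to 1269 CPM for reticular and progenitor cells, and 279 to 428 CPM for osteoclasts. Which cells these transcripts came from was not tested. The library titled DOX replicate 1 carries a treatment tag of PBS, and it was counted by its title. Its library name has the letter D, as the other DOX libraries do, where the PBS libraries have C. DOX replicate 1 and PBS replicate 1, both of batch 1, stood apart from the rest, with the lowest collagen shares (23.2% and 19.1%) and the highest summed erythroid markers (110 and 158 CPM, against 3.45 to 39.9 CPM in the other 6 libraries; CPM are counts scaled to a common library size, here with the trimmed mean of M-values, TMM). Fold changes without either or both of them are given below for some genes, not for every gene that they move. Among those not given below, Fzd5 went from a log2 fold change of -0.01 to -0.39 without both. Likewise Fzd2 went from 0.30 to -0.05, Dvl1 from -0.16 to -0.44 and Dvl3 from -0.08 to -0.36. Of the 8 libraries, 3 formed batch 1 (PBS replicate 1, DOX replicate 1 and DOX replicate 2) and 5 formed batch 2. In bulk libraries, fewer cells of a type and less RNA per cell cannot be told apart.

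Between DOX and PBS, 0 of the 39 genes were called in osteoblasts (adjusted p under 0.05, edgeR's quasi-likelihood test with batch as a term), where the share called among all genes tested was 0%. At an unadjusted p under 0.05 the same test listed 5 of the 39 (12.8%), against 3.71% of all genes. Higher in DOX was 1 of them, Wnt4 (1.98% of all genes), and lower in DOX were 4, Fzd1, Fzd7, Ror2 and Apc (1.74% of all genes). Their adjusted p was 0.995 each. DESeq2 and limma-voom also called none of the 39, with 6 and 10 of them at an unadjusted p under 0.05. The shares of all genes were 4.27% and 10.2%. For DESeq2 that share is over 21139 genes, since the filter on low counts was not applied there, and over 15373 for limma-voom. The number depended on the libraries: edgeR listed 8 without PBS replicate 1, 10 without DOX replicate 2, 3 without any 1 of PBS replicate 2, PBS replicate 3, DOX replicate 1, DOX replicate 4 or DOX replicate 5, 11 without PBS replicate 1 and DOX replicate 1 together, and 2 when the tag of DOX replicate 1 was used, which makes it a PBS library.

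Of the 39 log2 fold changes, 30 were below 0 with TMM scaling (76.9%, against 47.0% of all genes tested) and 23 with library totals (59.0%, against 33.9% of all genes). Their median was -0.13 with TMM (0.02 for all genes) and -0.04 with library totals (0.11 for all genes). By role, 4 of 8 ligands, 10 of 12 receptors, 2 of 2 secretion genes, 8 of 9 transducers and 6 of 8 targets lay below 0 with TMM. The medians in that order were -0.04, -0.24, -0.13, -0.13 and -0.22 with TMM, and 0.03, -0.16, -0.05, -0.04 and -0.13 with library totals. On the log2 CPM scale the median of the 39 was 0.03 in batch 1 and -0.22 in batch 2. The median changed sign between batches for transducers (0.19 and -0.32) and targets (0.11 and -0.40). It was below 0 in both batches for ligands (-0.25 and -0.06), receptors (-0.23 and -0.31) and secretion genes (-0.16 and -0.11). Leaving out 1 library moved the TMM medians to between -0.26 (PBS replicate 2) and -0.05 (DOX replicate 4) for ligands, -0.33 (DOX replicate 2) and -0.12 (DOX replicate 1) for receptors, and -0.20 (PBS replicate 2) and -0.08 (PBS replicate 3) for secretion genes. For transducers they ran from -0.30 (PBS replicate 1) to -0.05 (PBS replicate 2), and for targets from -0.38 (PBS replicate 1) to -0.16 (PBS replicate 3). The genes were chosen by name and not at random, so these counts describe them and were not tested.

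**Figure D1:**
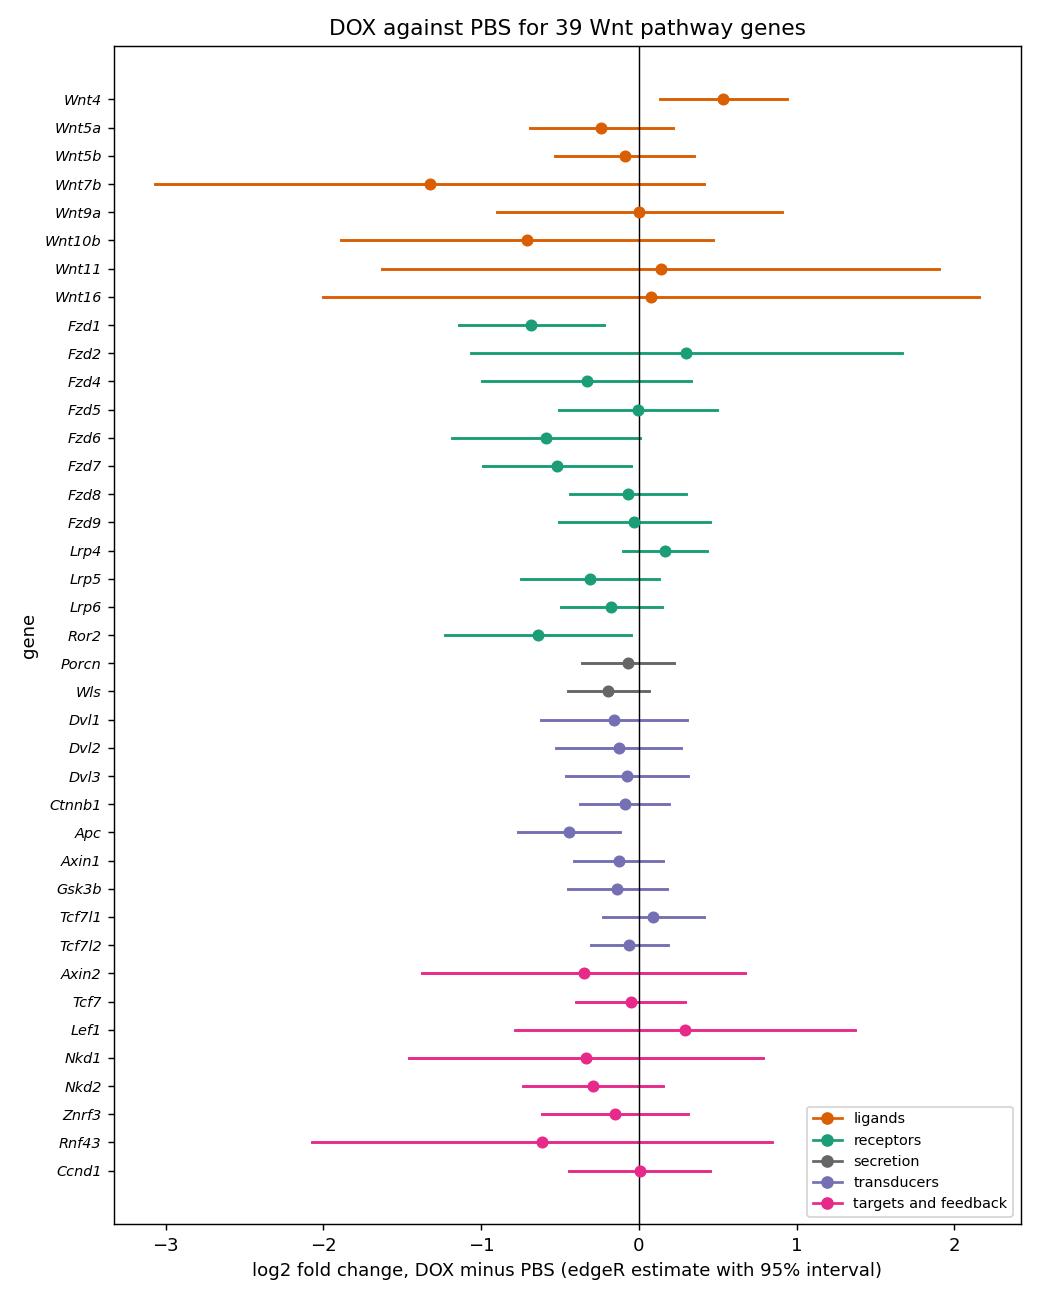
Log2 fold change of DOX minus PBS (x axis) for each of the 39 genes (y axis), with the 95% interval of edgeR's fit as a line and the role as a colour. The intervals of Wnt4, Fzd1, Fzd7, Ror2 and Apc do not cross 0 before adjustment over all genes, and the intervals of low genes such as Wnt7b, Wnt11 and Wnt16 are the widest.

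Per length of exon, the transcript levels ran from Ctnnb1, which encodes beta-catenin, at 128 CPM per kb to Wnt11 at 0.057 CPM per kb (means of 8 libraries; lengths from GENCODE M21). Ctnnb1 was followed by Tcf7, which encodes the factor TCF1, at 43.1 CPM per kb and by Wls at 18.9 CPM per kb, and the ranges over libraries of these first 3 did not overlap with one another or with that of the next gene. From the fourth gene down, Wnt4 at 11.2 CPM per kb, the ranges of neighbours overlapped throughout. Wnt4 and Wnt5b (8.60 CPM per kb) were the ligands with the highest means. Wnt5a stood at 1.91 CPM per kb, and the other 5 ligands lay between 0.057 and 0.427 CPM per kb. Among the Frizzled receptors, Fzd8 was highest at 10.3 CPM per kb and Fzd2 lowest at 0.163 CPM per kb. Of the 4 TCF and LEF genes, Tcf7 was highest and Lef1 lowest (0.297 CPM per kb), with Tcf7l2 at 5.55 and Tcf7l1 at 4.96 CPM per kb. The feedback genes were unequal too: Nkd2 stood at 7.62 CPM per kb, and Axin2, the target most often read as a measure of beta-catenin activity, at 0.205 CPM per kb.

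**Figure D2:**
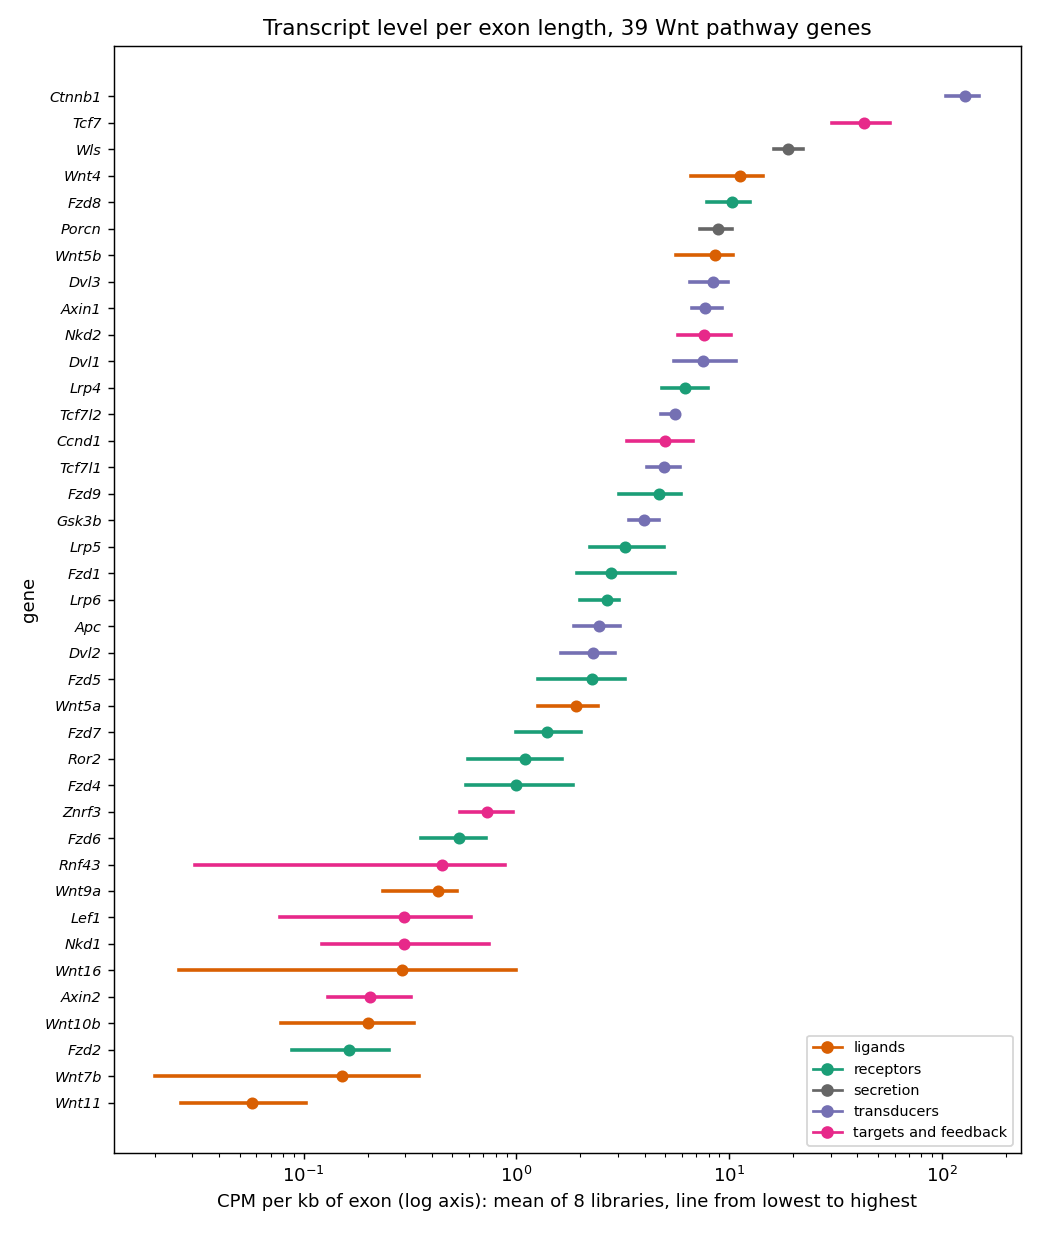
Transcript level in CPM per kb of exon on a log axis (x axis) for the 39 genes in order of their mean (y axis). Points are means of the 8 libraries and lines run from the lowest to the highest library. Ctnnb1 at 128, Tcf7 at 43.1 and Wls at 18.9 CPM per kb stand apart from the genes below them.

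Wnt4, a ligand that can act through both branches of the pathway, was the 1 ligand with an unadjusted p under 0.05. It stood at 37.9, 44.7 and 27.6 CPM in PBS replicates 1 to 3, and at 46.2, 57.2, 60.7, 44.4 and 57.8 CPM in DOX replicates 1 to 5. Of the DOX libraries 4 lay above every PBS library, and DOX replicate 4 lay just under PBS replicate 2. The means were 36.8 ± 8.58 CPM (SD, n = 3) and 53.3 ± 7.40 CPM (SD, n = 5). The log2 fold change was 0.54 ± 0.18 (SE; 95% interval 0.14 to 0.94; adjusted p = 0.995 in edgeR). The difference was upward in both batches, by 0.44 in batch 1 and 0.61 in batch 2 on the log2 CPM scale. The fold change was 0.53 under the PBS tag of DOX replicate 1 and 0.59 when both libraries that stood apart were dropped. Dropping 1 library at a time gave 0.35 (PBS replicate 3 dropped) to 0.71 (PBS replicate 2 dropped).

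Wnt7b and Wnt10b, ligands that promote bone formation in mice, were low in every library and lower on average in DOX. Wnt10b stood at 1.13, 0.791 and 0.793 CPM in PBS and at 0.525, 0.596, 0.591, 0.785 and 0.266 CPM in DOX. The groups did not overlap, but the gap was small: DOX replicate 4 (34 counts) lay just below PBS replicate 2 (29 counts), by less than counting error allows to be told apart. The log2 fold change of Wnt10b was -0.71 ± 0.53 (SE; adjusted p = 0.995 in edgeR). Wnt7b stood at 1.71, 0.982 and 0.793 CPM in PBS and at 0.121, 1.32, 0.0985, 0.254 and 0.676 CPM in DOX. For Wnt7b 4 of 5 DOX libraries lay below every PBS library, with 4 counts in DOX replicate 3 and 6 in DOX replicate 1, and DOX replicate 2 lay inside the PBS range. Its log2 fold change was -1.32 ± 0.78 (SE; adjusted p = 0.995 in edgeR), and it ran from -2.11 with the replicate number as a block to -0.64 under the PBS tag of DOX replicate 1.

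Wnt16, a ligand that restrains bone resorption, had 1 library far above the rest, PBS replicate 1. It stood at 4.34, 0.464 and 0.113 CPM in PBS and at 0.667, 1.34, 1.08, 0.370 and 1.69 CPM in DOX. All DOX values lay inside the PBS range. The difference was -2.14 in batch 1 and 1.71 in batch 2 (log2 CPM scale; interaction of batch and group, adjusted p = 0.314 in edgeR). Without PBS replicate 1 the log2 fold change of Wnt16 was 1.85, against 0.08 ± 0.93 (SE) over all libraries. The summed periosteum and tendon fibroblast markers were likewise highest in PBS replicate 1 (1544 CPM) and lowest in PBS replicate 3 (394 CPM), with 614 to 1081 CPM in DOX. All 12 markers of that list were in the table, 8 of the 12 were higher in DOX, and Kera, Angptl7 and Pi16 were at 0 in at least 1 library. Summed reticular and progenitor markers were also highest in PBS replicate 1 (1269 CPM) and lowest in PBS replicate 3 (531 CPM), with 564 to 943 CPM in DOX. Of that list 6 of 11 markers were higher in DOX. The part of either list in the Wnt16 values was not tested.

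The remaining ligands differed little between the groups relative to their spread. Wnt5a, the ligand best known for beta-catenin-independent signalling, stood at 19.0, 14.0 and 16.4 CPM in PBS and at 11.9, 16.5, 17.7, 9.84 and 14.0 CPM in DOX. Its groups overlapped, and its log2 fold change was -0.24 ± 0.20 (SE; 95% interval -0.69 to 0.21), and -0.13 without PBS replicate 1. Wnt5b, its close relative, stood at 24.9, 27.6 and 18.2 CPM in PBS and at 22.9, 24.4, 23.6, 14.9 and 25.9 CPM in DOX, with a log2 fold change of -0.09 ± 0.20 (SE). Wnt9a ranged from 0.788 to 1.76 CPM over the 8 libraries and Wnt11 from 0.109 to 0.425 CPM, both with overlapping groups.

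**Figure D3:**
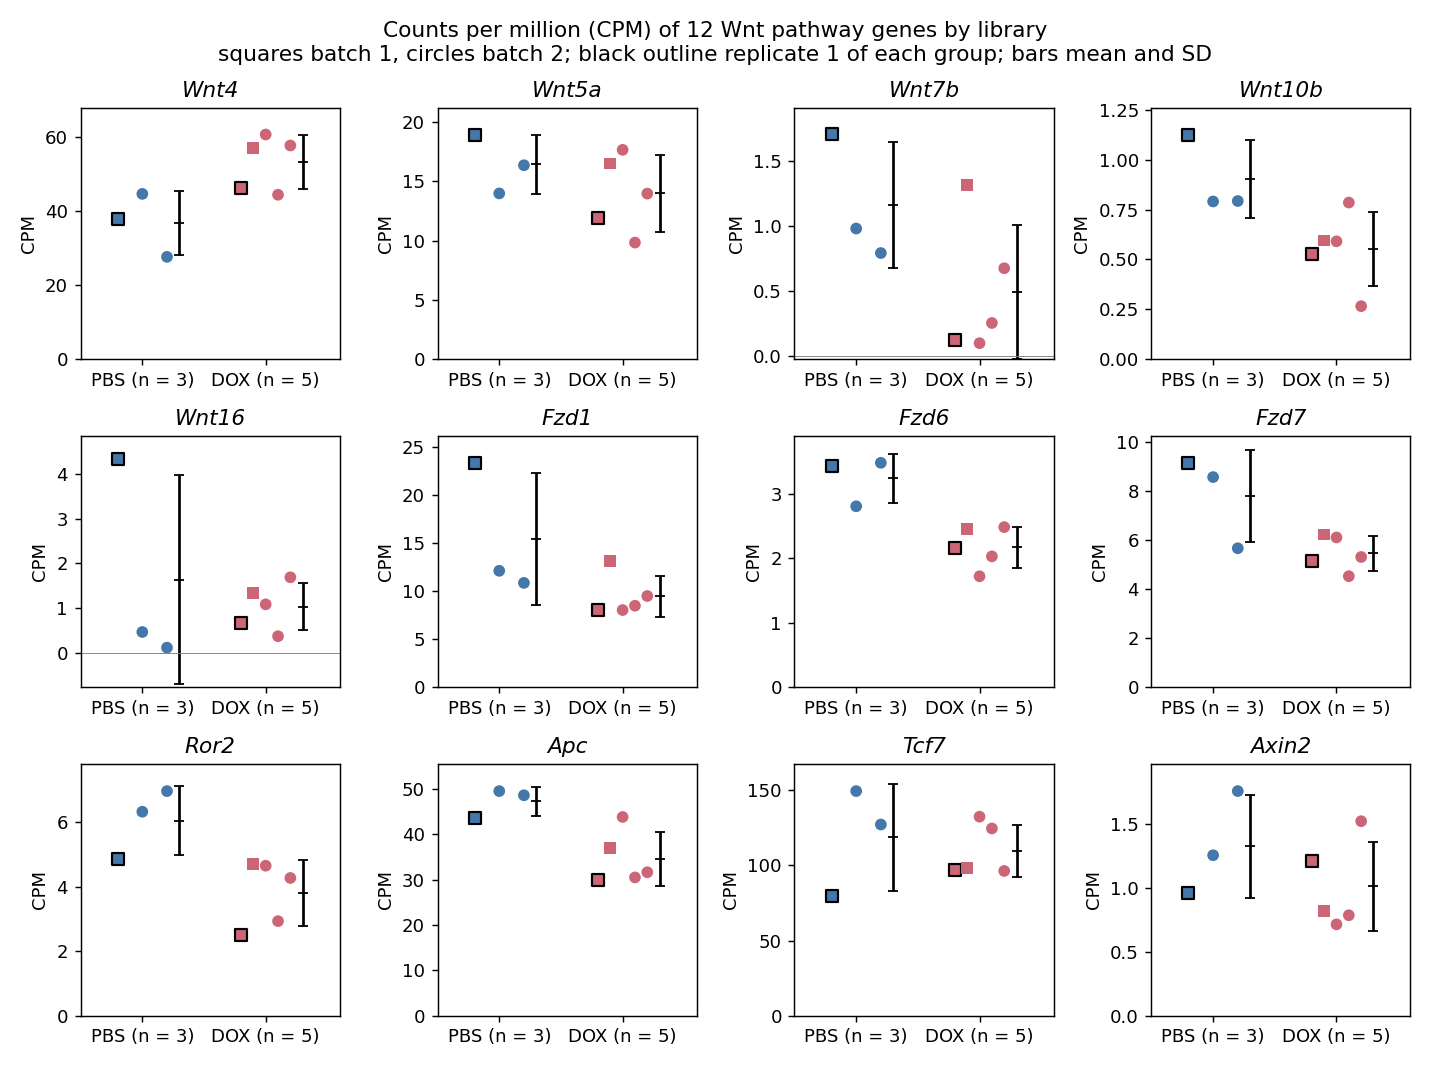
CPM (y axis) of 12 genes in each library of the PBS (n = 3) and DOX (n = 5) groups (x axis). Squares are batch 1, circles batch 2, black outlines replicate 1 of each group, and bars the mean and SD. All DOX points lie below all PBS points for Wnt10b, Fzd6 and Ror2, and 4 of 5 lie above them for Wnt4.

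Receptors held 3 of the 5 genes with an unadjusted p under 0.05, all lower in DOX. Fzd1, a Frizzled receptor of the beta-catenin branch, stood at 23.4, 12.1 and 10.9 CPM in PBS and at 8.10, 13.2, 8.05, 8.50 and 9.51 CPM in DOX. DOX replicate 2 lay inside the PBS range and the other 4 DOX libraries lay below it. The log2 fold change was -0.68 ± 0.21 (SE; 95% interval -1.14 to -0.22; adjusted p = 0.995 in edgeR). It was -0.40 without PBS replicate 1 and -0.35 under the PBS tag of DOX replicate 1. PBS replicate 1 and DOX replicate 2, the libraries highest in Fzd1, were also the highest in summed endothelial markers (20.1 and 16.9 CPM, against 1.31 to 4.12 CPM elsewhere) and in summed periosteum and tendon fibroblast markers (1544 and 1081 CPM, against 394 to 893 CPM elsewhere). PBS replicate 1 and DOX replicate 2 were likewise the highest in summed osteocyte markers (1079 and 1298 CPM). In summed reticular and progenitor markers they were the highest too (1269 and 943 CPM). The part of any of these lists in the Fzd1 values was not tested.

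Ror2, the receptor tyrosine kinase that binds WNT5A, had groups that did not overlap. It stood at 4.86, 6.33 and 6.97 CPM in PBS and at 2.51, 4.71, 4.65, 2.93 and 4.27 CPM in DOX. The highest DOX library lay just under the lowest PBS library, and these 2 libraries were both of batch 1. The means were 6.05 ± 1.08 CPM (SD, n = 3) and 3.82 ± 1.03 CPM (SD, n = 5), with a log2 fold change of -0.64 ± 0.27 (SE; 95% interval -1.23 to -0.05; adjusted p = 0.995 in edgeR). The difference was -0.49 in batch 1 and -0.77 in batch 2 on the log2 CPM scale, and the fold change was -0.35 under the PBS tag of DOX replicate 1.

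Fzd7 and Fzd6, further Frizzled receptors, were lower in DOX in both batches. Fzd7 stood at 9.15, 8.56 and 5.66 CPM in PBS and at 5.13, 6.23, 6.11, 4.53 and 5.31 CPM in DOX. For Fzd7 3 of 5 DOX libraries lay below every PBS library, and PBS replicate 3 lay among the DOX libraries. For Fzd7 the log2 fold change was -0.52 ± 0.21 (SE; adjusted p = 0.995 in edgeR), and -0.34 under the PBS tag of DOX replicate 1. Fzd6 stood at 3.44, 2.81 and 3.48 CPM in PBS and at 2.16, 2.46, 1.72, 2.03 and 2.49 CPM in DOX, with every DOX library below every PBS library. The log2 fold change of Fzd6 was -0.59 ± 0.27 (SE; 95% interval -1.18 to 0.01; adjusted p = 0.995 in edgeR), with -0.57 in batch 1 and -0.59 in batch 2 on the log2 CPM scale. Of the 39 genes, 3 had groups that did not overlap (7.69%), namely Wnt10b, Fzd6 and Ror2, all lower in DOX. Among all genes tested 2.43% did not overlap: 1.24% with DOX higher and 1.19% with DOX lower.

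The co-receptors LRP5 and LRP6, which carry the signal to beta-catenin, had intervals that included 0. Lrp5, whose loss lowers bone mass, stood at 23.6, 38.5 and 48.2 CPM in PBS and at 23.9, 27.5, 34.4, 21.5 and 33.9 CPM in DOX. PBS replicate 1 lay at the low end of the DOX values and the other 2 PBS libraries above all of them. The log2 fold change of Lrp5 was -0.31 ± 0.20 (SE; 95% interval -0.75 to 0.13), and -0.52 without PBS replicate 1. Lrp6 stood at 36.2, 41.5 and 39.7 CPM in PBS and at 27.3, 41.2, 34.6, 32.4 and 37.1 CPM in DOX, with a log2 fold change of -0.17 ± 0.14 (SE). Lrp4, which anchors the antagonist sclerostin, stood at 70.7, 58.6 and 50.6 CPM in PBS and at 83.4, 66.0, 63.4, 63.4 and 63.0 CPM in DOX, with overlapping groups and a log2 fold change of 0.16 ± 0.12 (SE). For Lrp4 this was 0.12 without DOX replicate 1, its highest library, and 0.22 without both libraries that stood apart. Fzd4, a receptor that also binds norrin, stood at 12.4, 7.04 and 3.88 CPM in PBS and at 4.59, 9.58, 5.83, 5.03 and 5.09 CPM in DOX. As for Fzd1, PBS replicate 1 and DOX replicate 2 were its highest libraries, and its log2 fold change went from -0.33 ± 0.30 (SE) to -0.03 without PBS replicate 1. The other Frizzled genes had overlapping groups, with ranges over the 8 libraries of 8.77 to 22.3 CPM for Fzd5, 47.2 to 74.9 CPM for Fzd8, 6.95 to 13.6 CPM for Fzd9 and 0.323 to 0.918 CPM for Fzd2.

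Of the 5 genes with an unadjusted p under 0.05 in edgeR, Apc is left out here. The sequences upstream of the other 4, Wnt4, Fzd1, Fzd7 and Ror2, are shown. Each is the 250 bases before the start site, 5′ to 3′ on the gene's strand, from RefSeq on GRCm38.p6, which differs from the GRCm39 build the authors used. They lie at chr4:137277385-137277634 (Wnt4, plus strand), chr5:4758217-4758466 (Fzd1, minus strand), chr1:59481897-59482146 (Fzd7, plus strand) and chr13:53286125-53286374 (Ror2, minus strand). Capitals mark a match to the TCF and LEF core, searched on both strands as the words CTTTGAA together with its variant CTTTGAT, and likewise CTTTGTA together with its variant CTTTGTT.
Wnt4: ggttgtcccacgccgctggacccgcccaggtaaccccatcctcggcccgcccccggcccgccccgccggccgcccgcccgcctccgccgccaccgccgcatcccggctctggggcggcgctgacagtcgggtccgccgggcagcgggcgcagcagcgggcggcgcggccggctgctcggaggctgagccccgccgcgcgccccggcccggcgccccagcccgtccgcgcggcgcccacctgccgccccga
Fzd1: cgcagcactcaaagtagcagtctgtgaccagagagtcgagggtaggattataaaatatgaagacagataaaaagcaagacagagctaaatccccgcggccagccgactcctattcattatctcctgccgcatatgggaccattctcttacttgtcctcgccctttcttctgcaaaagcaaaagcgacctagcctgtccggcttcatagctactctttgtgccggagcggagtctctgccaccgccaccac
Fzd7: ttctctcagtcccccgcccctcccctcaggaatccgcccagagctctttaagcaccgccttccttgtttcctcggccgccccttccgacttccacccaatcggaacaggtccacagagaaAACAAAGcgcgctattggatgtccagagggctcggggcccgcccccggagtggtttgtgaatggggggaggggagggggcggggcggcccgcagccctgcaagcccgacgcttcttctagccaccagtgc
Ror2: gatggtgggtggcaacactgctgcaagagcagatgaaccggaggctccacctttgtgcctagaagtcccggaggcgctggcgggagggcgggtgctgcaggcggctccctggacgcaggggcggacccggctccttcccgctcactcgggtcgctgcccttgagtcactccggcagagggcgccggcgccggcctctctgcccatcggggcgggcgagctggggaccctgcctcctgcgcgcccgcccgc

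Of these 4 windows, 1 held a match, the AACAAAG of Fzd7, the reverse complement of CTTTGTT, which begins 130 bases before the start. In G and C the windows of Wnt4, Ror2, Fzd7 and Fzd1 were at 85.2%, 73.2%, 65.2% and 51.2%. The median was 52.4% over all 32851 windows and 66.4% over the windows matched for the 39 genes. Windows were matched for 26 of the 39 genes, and 5 of their 36 windows held a match (13.9%), against 14.8% of all windows of that length. A match describes letters and does not show binding.

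Both genes of ligand secretion had small differences. Wls stood at 196, 164 and 180 CPM in PBS and at 142, 167, 160, 164 and 154 CPM in DOX, where 4 of 5 libraries lay below every PBS library. DOX replicates 2 and 4 lay level with PBS replicate 2. The log2 fold change of Wls was -0.19 ± 0.12 (SE; 95% interval -0.45 to 0.06), and -0.10 without PBS replicate 1. Porcn ranged from 23.7 to 29.7 CPM in PBS and from 21.8 to 30.9 CPM in DOX.

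Among the transducers, Apc, which encodes a component of the beta-catenin destruction complex, had the largest difference. It stood at 43.7, 49.6 and 48.6 CPM in PBS and at 29.9, 37.0, 43.8, 30.5 and 31.6 CPM in DOX. DOX replicate 3 lay level with PBS replicate 1, and the other 4 DOX libraries lay below every PBS library. The means were 47.3 ± 3.15 CPM (SD, n = 3) and 34.6 ± 5.88 CPM (SD, n = 5), with a log2 fold change of -0.44 ± 0.15 (SE; 95% interval -0.77 to -0.12; adjusted p = 0.995 in edgeR). The difference was -0.39 in batch 1 and -0.49 in batch 2 on the log2 CPM scale. It was -0.47 without PBS replicate 1 and DOX replicate 1, and -0.30 under the PBS tag of DOX replicate 1.

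Ctnnb1 stood at 592, 778 and 726 CPM in PBS and at 541, 678, 693, 669 and 656 CPM in DOX. Both libraries that stood apart were its lowest, 1 in each group. Its log2 fold change of -0.09 ± 0.13 (SE) had a 95% interval of -0.37 to 0.19. It was -0.16 without both of those libraries, and with 1 library left out it ran from -0.15 (PBS replicate 1 or DOX replicate 2) to -0.04 (PBS replicate 2). The Dishevelled genes Dvl1, Dvl2 and Dvl3, the destruction complex genes Axin1 and Gsk3b, and the factors Tcf7l1 and Tcf7l2 all had overlapping groups. Their means over the 8 libraries ran from 14.4 CPM for Dvl2 to 53.5 CPM for Dvl3.

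Targets and feedback regulators included no gene with an unadjusted p under 0.05 in edgeR. Axin2 stood at 0.958, 1.25 and 1.76 CPM in PBS and at 1.21, 0.819, 0.714, 0.785 and 1.52 CPM in DOX, on 29 to 63 counts per library. Its groups overlapped, and its log2 fold change of -0.35 ± 0.46 (SE) had a 95% interval of -1.37 to 0.67, so a change by a factor of 2 in the lower direction lay inside it. It ran from -0.59 without DOX replicate 5 to -0.14 without PBS replicate 3. Lef1 stood at 3.31, 2.67 and 0.680 CPM in PBS and at 5.40, 2.68, 2.51, 1.06 and 2.61 CPM in DOX, with a log2 fold change of 0.29 ± 0.48 (SE; 95% interval -0.78 to 1.37). It was -0.08 without PBS replicate 3, -0.06 under the PBS tag of DOX replicate 1, and 0.88 without PBS replicate 2. Tcf7 was measured far more precisely: it stood at 79.5, 149 and 127 CPM in PBS and at 96.9, 98.4, 132, 125 and 96.3 CPM in DOX, with a log2 fold change of -0.05 ± 0.16 (SE; 95% interval -0.40 to 0.30). All DOX values of Tcf7 lay inside the PBS range, and its fold change was -0.22 without PBS replicate 1.

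Nkd2, a feedback inhibitor that binds Dishevelled, stood at 31.8, 49.1 and 44.0 CPM in PBS and at 27.8, 46.1, 34.7, 30.0 and 30.7 CPM in DOX, with a log2 fold change of -0.29 ± 0.20 (SE). Without PBS replicate 1 it was -0.54. Ccnd1, which encodes cyclin D1, stood at 31.8, 23.1 and 15.6 CPM in PBS and at 20.7, 23.6, 22.6, 27.8 and 22.3 CPM in DOX, all inside the PBS range. For Ccnd1 the log2 fold change was 0.01 ± 0.20 (SE), or 0.33 without PBS replicate 1. Rnf43, a ubiquitin ligase that removes Frizzled receptors from the surface, stood at 2.14, 3.65 and 5.81 CPM in PBS and at 0.202, 3.95, 2.90, 2.10 and 2.61 CPM in DOX. DOX replicate 1 was far below the rest for Rnf43, with 10 counts, and the log2 fold change went from -0.62 ± 0.65 (SE) to -0.40 without that library, -1.51 without DOX replicate 2 and -0.31 without PBS replicate 3. Its relative Znrf3 ranged from 4.26 to 7.61 CPM over the 8 libraries, and Nkd1 from 0.555 to 3.40 CPM with its highest value in DOX replicate 1. For Nkd1 the fold change (log2) was -0.33 over all libraries, -0.61 without DOX replicate 1 and -0.87 without both libraries that stood apart.

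None of the other targets had a correlation with Axin2 that passed a test. Over the 8 libraries, Pearson's r of log2 CPM with Axin2 ran from -0.65 for Ccnd1 to 0.16 for Nkd1 among 7 relations, and Spearman's rho from -0.60 to 0.31. For Ccnd1 the exact permutation p was 0.0742 (adjusted p = 0.519 over the 7), Spearman's rho was -0.60 (exact permutation p = 0.132, adjusted p = 0.926), and r was -0.58 without PBS replicate 3 and DOX replicate 3, the libraries farthest from the Axin2 median. For Lef1 r was -0.20 (exact permutation p = 0.615, adjusted p = 0.955), Spearman's rho was -0.07 (exact permutation p = 0.882, adjusted p = 0.935), and r was 0.49 without those libraries. Within batches, 3 and 5 libraries are too few for a value. The genes whose log2 CPM was most like that of Axin2 among 3596 genes of at least 5 log2 CPM were Syap1 (r = 0.81), Rab28 (0.81), Elf2 (0.81), Cxxc1 (0.79) and Brd2 (0.79) over 8 libraries, as a description.

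The DOX difference turned between the batches for 21 of the 39 genes (53.8%), against 56.8% of all genes tested. By role these were 1 of 8 ligands, 6 of 12 receptors, 1 of 2 secretion genes, 7 of 9 transducers and 6 of 8 targets, and differences between roles were not tested. Some signs rest on values near 0. Among genes that turned, Ctnnb1 is an example (0.034 in batch 1 and -0.16 in batch 2). Among genes that did not turn, Wnt9a is an example (-0.0017 and -0.025). All 7 of those transducers were higher in DOX in batch 1 and lower in batch 2. The interaction of batch and group passed for none of the 39 (smallest adjusted p = 0.228 in edgeR), nor for any gene tested (0%). At an unadjusted p under 0.05 it listed 6 of the 39 (15.4%), against 11.7% of all genes: Fzd5, Dvl3, Wnt16, Gsk3b, Ccnd1 and Dvl1. On the log2 CPM scale the difference was 0.79 in batch 1 and -0.39 in batch 2 for Fzd5, 0.48 and -0.37 for Dvl3, 0.26 and -0.35 for Gsk3b, 0.38 and -0.46 for Dvl1, and -0.52 and 0.34 for Ccnd1. Batch 1 has a single PBS library, so its values carry no replicate check on that side.

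**Figure D4:**
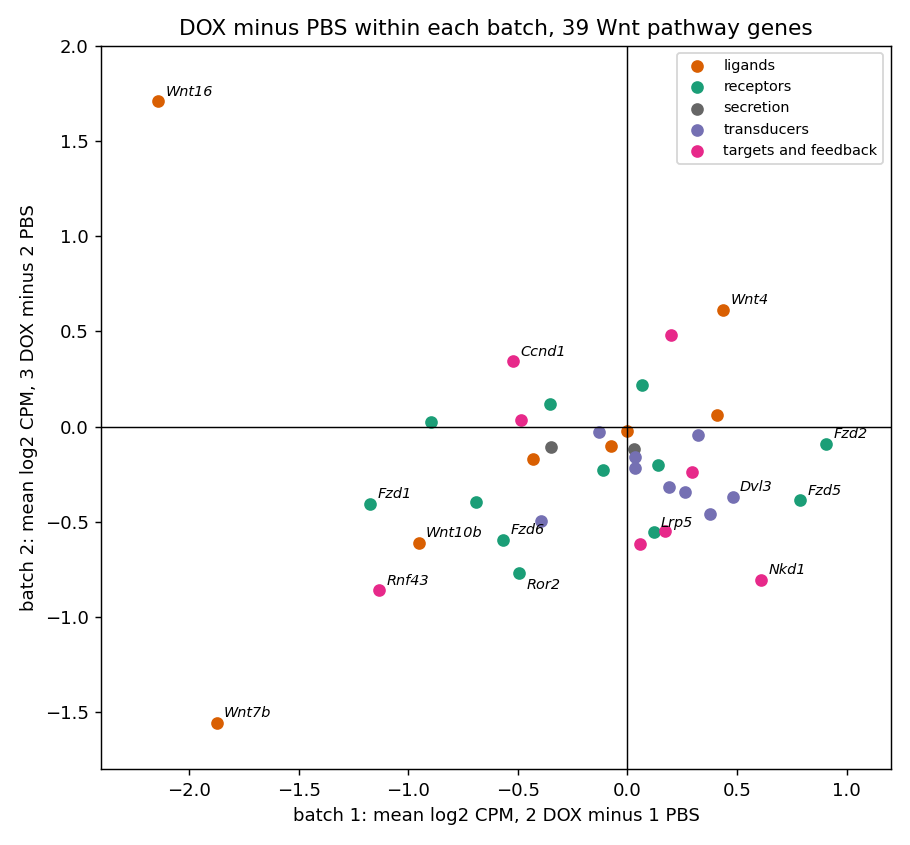
DOX minus PBS in mean log2 CPM within batch 1 (x axis) and within batch 2 (y axis), 1 point per gene, coloured by role. Wnt4 lies upper right at 0.44 and 0.61, Wnt7b, Wnt10b, Rnf43, Fzd1, Fzd6 and Ror2 lie lower left, and Wnt16 lies upper left at -2.14 and 1.71.

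The level of the transducers varied between libraries alongside the share of counts taken by type I collagen. Their mean log2 CPM, relative to each gene's mean over libraries, was 0.23 and 0.18 in PBS replicates 2 and 3, where collagen took 39.5% and 38.7% of counts and the TMM factors were 0.828 and 0.806. It was -0.16 in PBS replicate 1 and -0.10 in DOX replicate 1, where collagen took 19.1% and 23.2% and the factors were 1.30 and 1.26. The other DOX libraries lay between -0.15 and 0.07, at 26.0% to 35.5% collagen. The other roles differed from the transducers in PBS replicate 1, the library lowest in collagen. There the ligands lay at 0.60, the receptors at 0.15, the secretion genes at 0.17 and the targets at 0.07. Before scaling, Ctnnb1 had 31508 counts in PBS replicate 1 and 28524 and 25639 in the other PBS libraries, so PBS replicate 1 was the highest of the 3 in counts and the lowest in CPM. What part the collagen share has in these differences was not tested.

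**Figure D5:**
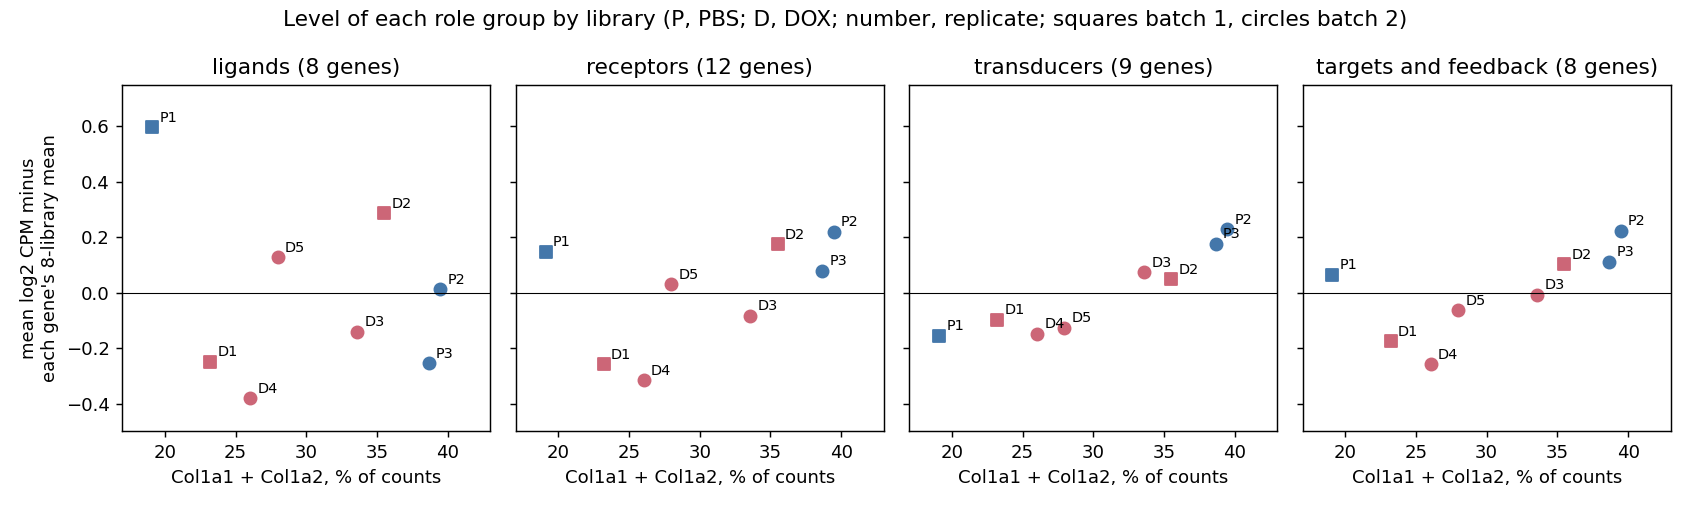
Mean log2 CPM of the genes of 4 role groups, relative to each gene's mean over 8 libraries (y axis), against the percentage of counts taken by Col1a1 and Col1a2 (x axis), 1 point per library (P, PBS; D, DOX; the number is the replicate). The 9 transducers lie between -0.16 and -0.10 in the 4 libraries at 19.1% to 28.0% collagen, in no order of collagen among those 4. They are highest, at 0.23 and 0.18, in PBS replicates 2 and 3. In the other panels PBS replicate 1, at 19.1% collagen, lies at 0.60 for ligands, 0.15 for receptors and 0.07 for targets.

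A wider list of 77 further pathway genes held 68 that were in the table and 60 that were tested, and none passed in edgeR. Of the 60, 25 were higher and 35 lower in DOX, with a median of -0.05, and 5 had an unadjusted p under 0.05 (8.33%, against 3.71% of all genes). Further receptors lay mostly below 0, with 8 of 9 lower. Ryk, an atypical kinase receptor for Wnt ligands and the highest of them, averaged 199 ± 20.5 CPM (SD, n = 3) for PBS and 172 ± 24.5 CPM (SD, n = 5) for DOX; its log2 fold change was -0.20 ± 0.13 (SE). Further ligands and R-spondins, agonists that stabilise Frizzled receptors, were scarce: 3 of 15 were tested, and the highest, Rspo3, stood at 2.95, 0.955 and 0 CPM in PBS and at 2.45, 0.695, 0.492, 0.393 and 1.06 CPM in DOX. The groups of Rspo3 overlapped. A count of 0 in PBS replicate 3 allows up to 0.0850 CPM, for counting error only.

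Further transducers divided evenly, with 11 higher and 12 lower of 23. Csnk1a1, the casein kinase that primes beta-catenin for degradation and the highest of them, averaged 217 ± 30.2 CPM (SD, n = 3) for PBS and 214 ± 14.4 CPM (SD, n = 5) for DOX. Tnks, a tankyrase that promotes AXIN degradation, differed by -0.36 ± 0.16 (log2 fold change, SE), and Pygo1, a co-activator of beta-catenin, by -0.35 ± 0.15. Tnks stood at 37.8, 56.5 and 52.1 CPM in PBS and at 35.0, 37.0, 47.6, 31.9 and 34.3 CPM in DOX. Pygo1 stood at 23.4, 35.8 and 34.0 CPM in PBS and at 21.8, 25.8, 26.9, 21.8 and 23.1 CPM in DOX. In both genes PBS replicate 1 lay among the DOX libraries. Both had an unadjusted p under 0.05. Their differences were -0.54 and -0.55 in batch 2 and -0.07 and 0.02 in batch 1 on the log2 CPM scale.

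Among further targets, Id2, an inhibitor of helix-loop-helix factors, had groups that did not overlap. It stood at 65.2, 67.2 and 49.4 CPM in PBS and at 124, 67.3, 74.1, 91.2 and 77.0 CPM in DOX, with DOX replicate 2 level with PBS replicate 2. Its log2 fold change was 0.50 ± 0.20 (SE; adjusted p = 0.995 in edgeR), with 0.49 in batch 1 and 0.48 in batch 2 on the log2 CPM scale. Without DOX replicate 1, the highest in Id2, it was 0.34, and under the PBS tag of that library 0.14. Twist1, which encodes a transcription factor of skeletal precursors, stood at 78.0, 114 and 94.5 CPM in PBS and at 112, 112, 121, 113 and 118 CPM in DOX. PBS replicate 2 lay among the DOX libraries, and the log2 fold change of Twist1 was 0.29 ± 0.12 (SE; adjusted p = 0.995 in edgeR), or 0.18 without PBS replicate 1. Gja1, which encodes connexin 43 and had the highest mean of the list, averaged 2808 ± 811 CPM (SD, n = 3) for PBS and 2441 ± 443 CPM (SD, n = 5) for DOX; its log2 fold change was -0.14 ± 0.20 (SE). Immediate early genes, which respond to cell handling and to stimuli, had all 12 of their listed members higher in DOX (53.0% of all genes tested). Their summed level was 4934, 4408, 2572, 2592 and 3485 CPM in DOX replicates 1 to 5. In PBS replicates 1 to 3 it was 3115, 2689 and 2281 CPM. DOX replicate 2, high in this sum, was the lowest DOX library in Id2, and DOX replicate 4, low in this sum, stood at 91.2 CPM in Id2. The part of the immediate early genes in the values of Id2 was not tested.

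The planar polarity genes, which serve the beta-catenin-independent branch, had 7 of 14 members on either side of 0. Daam1, a formin that links Dishevelled to the small GTPase RhoA, stood at 14.9, 11.1 and 10.9 CPM in PBS and at 8.87, 7.54, 10.3, 10.0 and 9.94 CPM in DOX, without overlap. Its log2 fold change was -0.40 ± 0.18 (SE; adjusted p = 0.995 in edgeR), with -0.86 in batch 1 and -0.12 in batch 2 on the log2 CPM scale. It was -0.11 without PBS replicate 1, the highest in Daam1. Rhoa, which had the highest mean of the list, stood at 273, 271 and 278 CPM in PBS and at 281, 300, 291, 305 and 319 CPM in DOX, also without overlap, with a log2 fold change of 0.13 ± 0.11 (SE; adjusted p = 0.995 in edgeR).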

How the data were processed

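RNA of sorted osteoblasts was extracted with a column kit and converted to cDNA with the SMART-Seq v4 Plus kit, per the labels' protocols. That kit amplifies full-length cDNA and does not mark strand, so reads of antisense or overlapping gene pairs are not separable. The authors deposited raw read counts per gene symbol; their tools were Trim Galore 0.6.6, STAR 2.7.9a and featureCounts 2.0.1 on GRCm39, per the submitters' processing notes. The annotation, strand setting and filter (the smallest gene total was 10 counts) were not given in the sources used here.

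For testing, edgeR 4.0.16 (R 4.3.3) was used on the counts: TMM scaling, the filterByExpr filter, batch and group as terms, two-sided quasi-likelihood tests, Benjamini-Hochberg adjustment over 15373 genes and a threshold of 0.05. Standard errors come from the fold change and F. Log2 CPM carry a prior count of 2. DESeq2 1.42.0 and limma 3.58.1 were alternatives, with other scalings, filters, batch terms, left-out libraries and the other label of DOX replicate 1. The scripts were tested on simulated data. Titles call the libraries biological replicates; no 2 agreed within sampling noise. Exon lengths, used only for levels per kb, are from GENCODE M21 (GRCm38). Figures used matplotlib 3.10.9.

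The 39 genes, the wider lists and the markers were chosen with earlier results of these data known. Of the 39, values in every library are given for the highest gene of each role, genes with unadjusted p under 0.05, genes whose groups do not overlap, genes with a far-off library, and a fixed panel of 13. Of the wider lists, the highest gene of each list and those with unadjusted p under 0.05 are named. PCR without molecular identifiers means that count limits cover counting error only.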

Additional observations from a re-analysis of the deposited data

Results flagged for a closer look

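Within the 5 DOX libraries, the highest or lowest library lay far from the others for 5 of the 39 genes, by the gap to its neighbour as a share of the group's range. For normally distributed values chance gives this in about 1 of 20 groups. The share of all genes flagged in this way was not computed. DOX replicate 1 was highest in Lrp4, at 83.4 CPM with the next library at 66.0 CPM. It was lowest in Ctnnb1, at 541 CPM with the next at 656 CPM. This is the library whose labels disagree. Among all genes tested, DOX replicate 1 was the highest of the 8 libraries for 22.3% and the lowest for 2937 of 15373. DOX replicate 2 was highest in Fzd1, at 13.2 CPM with the next at 9.51 CPM, and highest in Fzd4, at 9.58 CPM with the next at 5.83 CPM. DOX replicate 4 was lowest in Wnt5b, at 14.9 CPM with the next at 22.9 CPM. The PBS group, with 3 libraries, was too small for this check.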

How the results depend on the processing

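Of 15373 genes tested, 0 were called in edgeR (571 at an unadjusted p under 0.05), 26 in DESeq2 and 96 in batch 1 alone, which has 1 PBS library; the cause was not tested. Leaving out any 1 library gave 0. None of the 39 Wnt genes was called under any of 21 alternatives (smallest adjusted p = 0.288). The number of them at an unadjusted p under 0.05, 5 in the edgeR test, was 2 in batch 1 alone, 11 in batch 2 alone, 10 in limma-voom and 3 to 10 with 1 library left out. Replicate numbers are shared by both groups, but same-numbered libraries correlated at only -0.05 to 0.25 over 3 pairs, and 2 of 3 PBS libraries correlated best with their own number, so the numbers were not taken as a pairing. With the replicate number as a block 0 genes were called, 3 of the 39 had an unadjusted p under 0.05, and the log2 fold changes of Ccnd1 and Wnt5b were -0.021 and 0.022. Of 477 recomputed fold changes of 23 named genes, 28 changed sign. In batch 1 alone these were Ctnnb1 (0.023), Axin2 (0.062), Tcf7 (0.28), Nkd2 (0.20), Lrp5 (0.10), Ccnd1 (-0.54) and Wnt16 (-2.13). With DOX replicate 1 counted as PBS they were Lef1 (-0.057), Fzd4 (0.037) and Rnf43 (0.066). Without a batch term they were Ccnd1 (-0.0074) and Wnt16 (-0.68), without a filter Ccnd1 (-0.00044), and with library totals Tcf7 (0.046). With 1 library left out, fold changes ran from -0.22 to 0.072 for Tcf7, -0.80 to 1.85 for Wnt16, -0.23 to 0.081 for Wnt5b, -0.076 to 0.88 for Lef1 and -0.23 to 0.33 for Ccnd1. The sign was kept in all alternatives that gave a value by 12 of the 39 genes, 10 lower and 2 higher in DOX (Wnt4 and Lrp4). A stricter filter on CPM left no value for low genes such as Axin2, Lef1 and Wnt7b, whose depth limits their precision. Leaving out PBS replicate 1 and DOX replicate 1 together, and library totals, were chosen after seeing the data.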
